A study of Mus musculus with 12 samples.

Results

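The genes of the unconventional myosins and of the kinesins were described in 12 ATAC-seq libraries of a mouse fibroblast line. Every gene whose listed name begins with Myo or Kif followed by a digit, or with Kifc, was taken, which gave 52 of the 12337 named genes with a tested region, 17 of them myosins and 35 kinesins. The 52 genes hold 71 of the 81995 regions in the deposited table. Each gene was read at the region whose centre lies nearest its start site, and ties went to the higher mean over all libraries. All 52 passed the minimum mean of 5 used before testing. A gene enters only where the deposited table lists a region for it. A member low in WT may thus be listed through another group where it is higher.

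Myosin heads use ATP to pull on actin filaments, and the unconventional classes carry vesicles, tie membranes to the cortex or build filopodia, instead of forming the bipolar filaments of muscle and stress fibres. Kinesin heads step along microtubules. Some haul organelles toward the cell edge, some run inside cilia, some build and split the mitotic spindle, and others take microtubules apart at their ends. Fibroblasts use both sets, for spreading and migration on the actin side and for organelle transport, primary cilia and division on the microtubule side.

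ATAC-seq uses the Tn5 transposase to cut and tag open DNA, so a higher read count at a region means that it was cut more often. The cells were NIH/3T3, an immortal mouse fibroblast line, with 25000 cells in each sample and 3 biological replicates in each of 4 groups. The question behind the series is how RNA decay takes part in transcriptional adaptation, a response in which cells with a mutant transcript change the output of related genes. The mutated gene was Actg1, which encodes cytoplasmic gamma-actin. WT cells had the unedited gene. PTC1 cells carried an insertion of 1 nt (a T) after coding position 280 of Actg1, on one allele together with the change A280G, which puts a premature stop codon in exon 3. PTC2 cells carried an insertion of 4036 nt after position 1096 of the Actg1-202 transcript, with the premature stop codon in exon 5. LD cells lacked the full Actg1 locus. All 3 mutants were made with CRISPR-Cas9, and the labels name no separate clones, so each mutant may be 1 clone, and what belongs to the allele and what belongs to a clone cannot be told apart.

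Estimated reads in regions were 25.02 to 44.97 M per library. Libraries of the same group correlated with r of 0.982 to 0.987 across regions, and libraries of different groups with r of 0.817 to 0.933. No region over Actg1 was analysed here, so the deletion was not checked at its own locus. Of the fibroblast markers, 12 had a region, with a WT median of 1117 normalized reads per kb (range 45.5 to 2598), from Lum at 45.5, Pdgfra at 338 and Col3a1 at 342 to Fn1 at 1731 and Vim at 2598. Their PTC1 median was 939 (range 226 to 2454), with 3 higher and 6 lower in PTC1. The PTC2 median was 1176, with 3 higher and 0 lower, and the LD median 1071.5, with 4 higher and 3 lower. The 18 markers of other cell types had a WT median of 158 per kb (range 13.1 to 1157) and a PTC1 median of 271 (range 123 to 1341), with 8 higher and 2 lower in PTC1. Their median was also above WT in PTC2, at 236, and in LD, at 227, with 4 higher and 4 lower in each. The markers of other types with the lowest adjusted p in PTC1 were 3 neural genes. Sox2 and Syt1 stood at 585 and 395 per kb against 13.1 and 27.8 in WT, and Tubb3 fell to 524 from 845. The part of these marker differences in the motor gene results was not tested. In these bulk samples, fewer cells with an open region and less opening in each cell cannot be told apart.

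The motor gene regions spanned a wide range of accessibility in WT, and those that covered the gene's own promoter stood higher. Region centres of 39 members lay within 1000 bp of the start site and those of 13 lay farther away. The most open members per kb in WT were Myo10, the motor of filopodial tips, at 2742 normalized reads per kb, Kif24, which shortens microtubules at the centriole, at 2444, and the spindle motor Kifc1 at 2378. At the other end stood Myo15a at 55.1, Myo1f at 63.2 and Myo18b at 90.9 per kb, genes of hair cells, leukocytes and muscle. The promoter window of the gene itself, in RefSeq GRCm38.p6, overlapped the region of 31 members. Those 31 had a WT median of 1073 per kb (range 305 to 2742), and the other 21 a median of 213 (range 55.1 to 1681). In 8 members the WT mean was below 50 normalized reads, and their changes have wide errors. In 11 members the region also holds the promoter window of another gene, and the value cannot be given to 1 gene. Among these are Nudt2 for Kif24, Pdzd11 for Kif4, Senp8 for Myo9a, Haus8 for Myo9b, Inca1 for Kif1c, 1110059G10Rik for Kif15, 3830408C21Rik for Kif2a, A430108G06Rik for Kif3a, Gm39961 for Kif3b and I920046F24Rik for Kif3c.

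**Figure D1:**
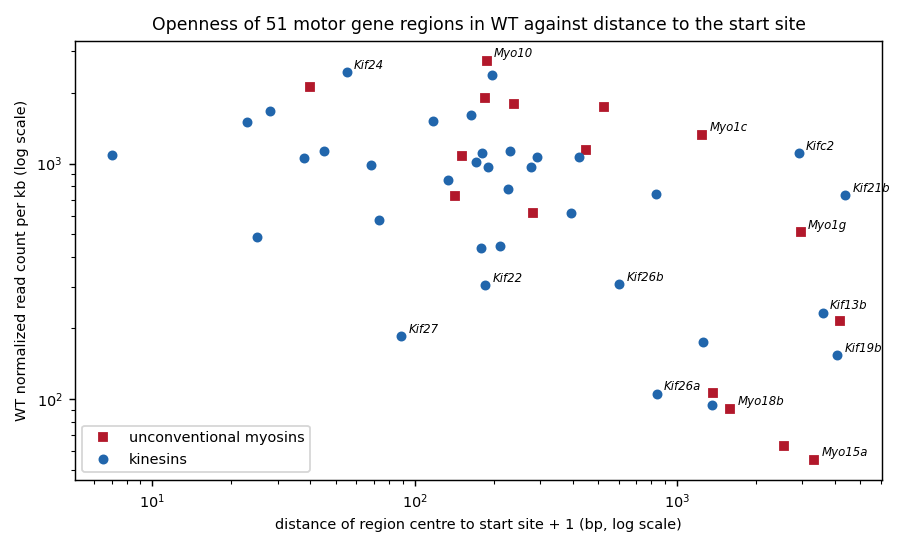
Normalized read count per kb of region in WT (mean of 3 libraries, log scale) against the distance from region centre to start site plus 1 bp (log scale) for 51 members, myosins as squares and kinesins as circles. Myo10 at 2742 and Kif24 at 2444 stand at the top within 1000 bp of the start site, and Myo15a at 55.1 lies lowest, beyond it.

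Nearly all of these start sites differed somewhere among the 4 groups, as did most genes. The moderated F test of limma called 48 of 52 members, beside 88.4% of all start site regions. The 4 not called were Kif11, Kif28, Kifc3 and Myo1c. Against WT, PTC1 had 22 members higher (42.3%) and 12 lower (23.1%), beside 33.3% and 28.5% of all genes. PTC2 had 22 higher (42.3%) and 8 lower (15.4%), beside 37.4% and 16.3% of all genes. LD had 9 higher (17.3%) and 12 lower (23.1%), beside 16.9% and 29.5% of all genes. The LD split depended on the scaling, with 19 higher and 7 lower after loess and 5 higher and 14 lower with every library set to the same median. The shares of all genes were not computed under those scalings. With the values as deposited, the shares of members stand near those of all genes, the widest gap being that of members higher in PTC1. The median log2 change of the members was 0.17 in PTC1, 0.10 in PTC2 and -0.02 in LD, beside 0.03, 0.10 and -0.05 for all genes. Members moved in both directions in every comparison.

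A log2 change of at least 1 was called in 4 members in PTC1, 5 in PTC2 and 3 in LD, beside 10.4%, 7.76% and 5.71% of all genes. All 3 mutants were compared with the same WT libraries. In all 3, the calls were higher for Kif18b, Kifc5b, Myo15a, Myo18a and Myo1f, among others, and lower for Kif5b. Calls in PTC1 and PTC2 pointed in opposite directions for Kif13a, Kif15, Kif16b, Kif1b, Myo1g and Myo6. No call in any of the 3 was made for Kif11, Kif28, Kifc3, Myo1c and Myo7a. The shares of all genes with these patterns of calls were not computed, so the patterns are not read as a trait of the members.

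**Figure D2:**
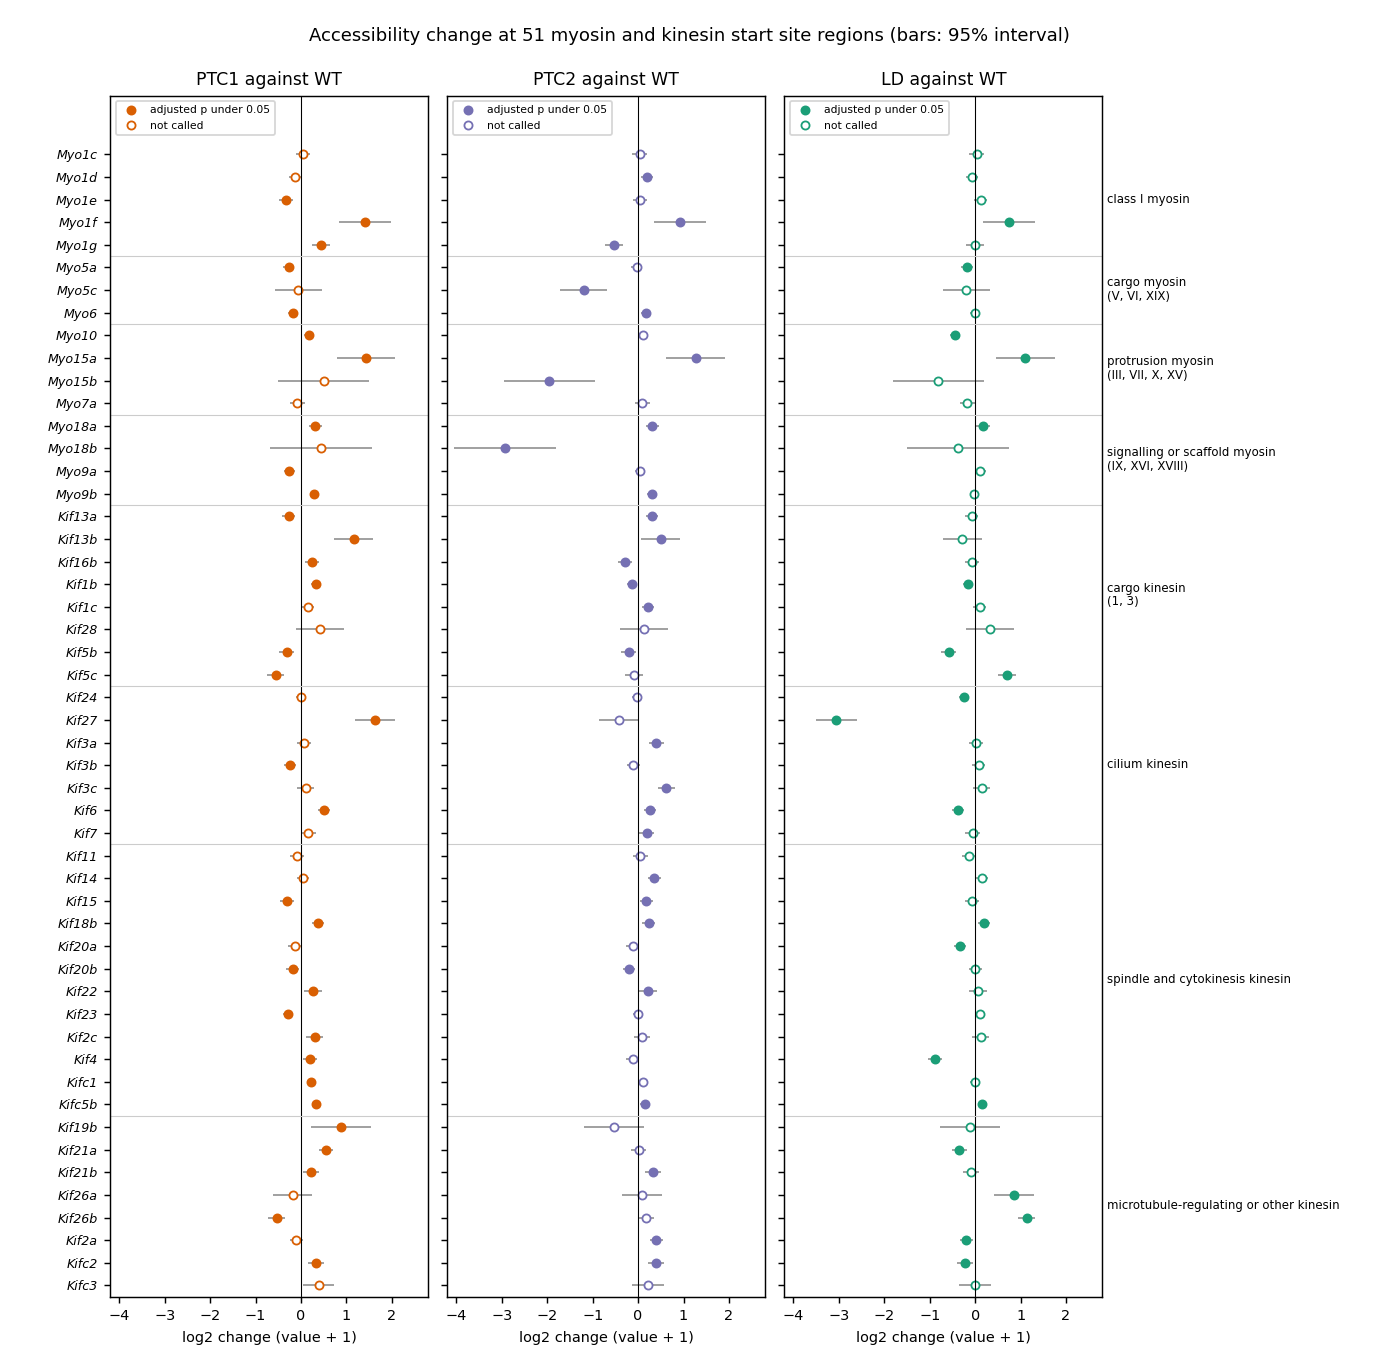
Log2 change against WT on the log2(value + 1) scale for 51 members, grouped by role, in PTC1, PTC2 and LD. Filled points have a limma adjusted p under 0.05, open points do not, and bars are 95% intervals of the fit. Most members lie within 1 log2 unit of 0, and Kif27 in LD (-3.06), Myo18b in PTC2 (-2.92) and Myo15b in PTC2 (-1.96) stand farthest out.

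Class I myosins are single-headed motors that bind membrane lipids with their tails. Myo1g, a plasma membrane myosin known from blood cells, moved in opposite directions in the premature stop cells. Its values were 499, 397 and 421 in WT, 530, 614 and 627 in PTC1, 328, 284 and 302 in PTC2 and 444, 423 and 444 in LD. PTC1 lay above WT and PTC2 below it with no overlap, and LD lay inside the WT range. PTC1 was higher by 0.43 ± 0.10 (adjusted p = 0.00033) and PTC2 lower, at -0.52 ± 0.10 (adjusted p = 3.35e-05). The region lies 2970 bp from the start site. Myo1f, which leukocytes use in migration, was low in all groups, with WT, PTC1, PTC2 and LD means of 24.0, 62.0, 45.0 and 39.3. It was called higher in all 3, and of the mutant groups the PTC1 libraries alone all lay above the WT range.

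Myo1e, which works at clathrin-coated pits and podosomes, had a mean of 1303 in PTC1 against 1619 in WT, a change of -0.33 ± 0.07 (adjusted p = 0.000379). Myo1d was higher in PTC2 at 0.19 ± 0.07 (adjusted p = 0.0158). Myo1c, which tethers vesicles and tunes membrane tension, kept means of 976, 1009, 1001 and 996 in WT, PTC1, PTC2 and LD at its start site. Another region listed for Myo1c, with its centre 2491 bp from the start site, had means of 116, 111, 277 and 116, and was higher in PTC2 by 1.24 ± 0.14 (adjusted p = 5.28e-09).

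Of the 3 cargo myosins, Myo5a and Myo6 had open start sites and changed little. Myo5a, which carries melanosomes and endoplasmic reticulum, had 2237, 2262 and 2299 reads in WT and 1706, 1963 and 1979 in PTC1, with no overlap. It was lower in PTC1 at -0.27 ± 0.06 (adjusted p = 0.000359) and in LD at -0.18 ± 0.06 (adjusted p = 0.0167). Myo6, the myosin that walks toward the pointed end of actin, was lower in PTC1 at -0.18 ± 0.05 (adjusted p = 0.00452) and higher in PTC2 at 0.17 ± 0.05 (adjusted p = 0.00644). Myo5c, an epithelial class V myosin read 4173 bp from its start site, had 50, 47 and 47 reads in WT and 23, 23 and 16 in PTC2. That was a change of -1.20 ± 0.25 (adjusted p = 0.000174), while PTC1 and LD were not called. A more open region listed for Myo5c, with a WT mean of 1585, changed by -0.22 in PTC2 (adjusted p = 0.00469) and by -0.37 in PTC1 (adjusted p = 1.01e-05).

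Among the protrusion myosins, Myo10 was the most open motor gene of all and fell in LD. Its values were 4113, 3907 and 3840 in WT, 4473, 4443 and 4457 in PTC1, 4397, 4319 and 3988 in PTC2, and 3066, 2746 and 2854 in LD. All LD libraries lay below all others, and PTC1 lay above WT. The LD change was -0.45 ± 0.05 (adjusted p = 6.69e-09) and the PTC1 change 0.17 ± 0.05 (adjusted p = 0.00274). Regions within 1000000 bp of Myo10 moved with it, by a median of -0.41 in LD and 0.82 in PTC1, and their part in the change was not tested. With that shift subtracted, Myo10 in LD stood at -0.05 and was no longer called (with the chromosome median subtracted it was called at -0.28, adjusted p = 3.56e-05), and in PTC1 it stood at -0.65, the opposite sign.

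Myo15a and Myo15b, related to the motor of hair cell stereocilia, were read at small regions with few reads. Myo15a had WT, PTC1, PTC2 and LD means of 15.0, 43.7, 38.0 and 33.0, and every mutant library lay above every WT library. The changes were 1.43 ± 0.32, 1.27 ± 0.32 and 1.11 ± 0.32 (adjusted p = 0.000263, 0.00104 and 0.00478). Myo15b had 16, 13 and 26 reads in WT and 1, 4 and 10 in PTC2, and was called lower there (adjusted p = 0.00111). Myo7a, a motor of stereocilia and photoreceptors, had means of 532 to 638 across the groups and was not called against WT.

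Myo18b had the largest fall among the scaffold and signalling myosins. Myo18b is needed for muscle sarcomeres, and its nearest region had 13, 12 and 11 reads in WT, 13, 17 and 21 in PTC1, 0, 0 and 4 in PTC2, and 5, 10 and 14 in LD. A wider Myo18b region, 4557 bp from the start site (chr5:112900592-112901246), had WT, PTC1, PTC2 and LD means of 134 ± 21.1, 289 ± 14.1, 18.7 ± 7.37 and 165 ± 20.6 (SD, n = 3). There PTC2 was lower by limma at -2.83 ± 0.19 (adjusted p = 2.6e-13) and PTC1 higher at 1.11 (adjusted p = 1.26e-05). The nearest region was lower in PTC2 at -2.92 ± 0.55 (adjusted p = 3.98e-05), so both fell there. Myo9b, a motor that also acts in signalling, was higher in PTC1 at 0.29 ± 0.05 (adjusted p = 6.7e-06) and in PTC2 at 0.30 ± 0.05 (adjusted p = 4.09e-06), and stood at -0.03 in LD. Its relative Myo9a was lower in PTC1, at -0.26 ± 0.06 (adjusted p = 0.000203). Myo18a, which binds the Golgi, was higher in all 3, at 0.32, 0.32 and 0.18 (adjusted p = 0.000472, 0.000524 and 0.0476).

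Among the 8 cargo kinesins, which pull organelles and vesicles outward, the conventional kinesin paralogs moved apart in LD before any shift was subtracted. Kif5b, the ubiquitous heavy chain, had 945, 905 and 957 reads in WT, 758, 713 and 781 in PTC1, 887, 748 and 809 in PTC2, and 693, 560 and 631 in LD. Every mutant library lay below every WT library, and LD was the lowest group. The changes were -0.32 ± 0.08, -0.20 ± 0.08 and -0.58 ± 0.08 (adjusted p = 0.00111, 0.0318 and 7.16e-07). Kif5b lies on chromosome 18, whose median region shifted by -0.45, -0.28 and -0.55 in PTC1, PTC2 and LD. With the chromosome median subtracted, the Kif5b values were 0.15, 0.11 and -0.04, so its sign turned in PTC1 and PTC2. Kif5b was then not called in LD, and it was not called there with the neighbourhood shift subtracted either (-0.12). Kif5c, the neuron-enriched paralog (chr2:49619009-49620007), went the other way in LD. It had 459, 477 and 396 reads in WT, 303, 312 and 286 in PTC1, 413, 459 and 382 in PTC2, and 793, 693 and 682 in LD. LD lay above and PTC1 below all other libraries, with changes of 0.70 ± 0.09 (adjusted p = 4.52e-07) and -0.56 ± 0.09 (adjusted p = 8.73e-06). With the neighbourhood shift subtracted, Kif5c stood at 0.31 in LD and -0.30 in PTC1, both still called by limma (adjusted p = 0.0137 and 0.0124).

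Kif13b, which carries signalling proteins along microtubules, was higher in both premature stop groups and not in LD. Its small region, 3594 bp from the start site, had 42, 42 and 48 reads in WT, 98, 96 and 104 in PTC1, 70, 46 and 75 in PTC2 and 40, 34 and 34 in LD. PTC1 lay above all other libraries, while 1 PTC2 library fell inside the WT range. The changes were 1.16 ± 0.21 in PTC1 (adjusted p = 2.29e-05) and 0.50 ± 0.21 in PTC2 (adjusted p = 0.0448). A more open Kif13b region, with a WT mean of 731, rose by 0.36 and 0.32 in the same groups (adjusted p = 0.000239 and 0.0011) and stood at -0.05 in LD.

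Other kinesins of endosomes and vesicles differed between the premature stop groups. Kif13a was lower in PTC1 at -0.27 and higher in PTC2 at 0.30 (adjusted p = 0.00134 and 0.000411). Kif16b, which moves early endosomes, was higher in PTC1 at 0.25 and lower in PTC2 at -0.29 (adjusted p = 0.00532 and 0.00156). Kif1b, a carrier of mitochondria and synaptic vesicle precursors, was higher in PTC1 at 0.32, and lower in PTC2 at -0.12 and in LD at -0.16 (adjusted p = 6.61e-06, 0.0477 and 0.0182). Kif1c was higher in PTC2 at 0.22 (adjusted p = 0.00548), and Kif28 was not called, with means of 41.7 to 57.7. Around Kif16b the neighbouring regions shifted by -0.92 in PTC2, and with that subtracted Kif16b stood at 0.63 (adjusted p = 1.85e-06), the opposite sign.

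The cilium kinesins held the largest change of the family. Kif27, a relative of Kif7 that is needed for motile cilia in mouse, was read at chr13:58358808-58359611, 88 bp from its start site. It had 147, 150 and 147 reads in WT, 430, 466 and 482 in PTC1, 105, 129 and 99 in PTC2, and 22, 9 and 24 in LD. The groups did not overlap: PTC1 stood highest, then WT, then PTC2, and LD had 9 to 24 reads. PTC1 was higher at 1.63 ± 0.22 (3.09-fold, adjusted p = 1.82e-07) and LD lower at -3.06 ± 0.22 (adjusted p = 1.45e-12). PTC2 stood at -0.42 ± 0.22 (adjusted p = 0.097). The mean of PTC1 and PTC2 exceeded LD by 3.66 ± 0.19 (adjusted p = 2.75e-16). Regions around Kif27 shifted by only -0.15 in PTC1 and 0.12 in LD, and chromosome 13 by -0.15 and -0.04.

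Kif6, linked to ependymal cilia in mouse, was higher in both premature stop groups and lower in LD. It had 1202, 1207 and 1057 reads in WT, 1574, 1641 and 1678 in PTC1, 1423, 1344 and 1399 in PTC2, and 912, 866 and 892 in LD, with no overlap between any of the groups. The changes were 0.50 ± 0.06, 0.27 ± 0.06 and -0.37 ± 0.06 (adjusted p = 8.02e-08, 0.000658 and 1.68e-05). Neighbouring regions shifted by 0.60 in PTC1, 0.53 in PTC2 and 0.06 in LD, and with that subtracted the PTC1 and PTC2 values were -0.11 and -0.26, the opposite sign.

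The heterotrimeric kinesin of intraflagellar transport pairs Kif3a with Kif3b or Kif3c. Kif3c (chr12:3364670-3365949) had 519, 550 and 606 reads in WT, 507, 612 and 691 in PTC1, 807, 864 and 904 in PTC2, and 614, 591 and 643 in LD. All PTC2 libraries lay above all others, with a change of 0.62 ± 0.09 (adjusted p = 1.04e-06). Kif3a was also higher in PTC2, at 0.40 ± 0.08 (adjusted p = 4.04e-05). Kif3b stood at -0.10 in PTC2 (adjusted p = 0.194) and was lower in PTC1 at -0.24 ± 0.07 (adjusted p = 0.00294). Kif7, a regulator of Hedgehog signalling at the cilium tip, was higher in PTC2 at 0.19 ± 0.08 (adjusted p = 0.0445). Kif24 was lower in LD at -0.25 ± 0.05 (adjusted p = 0.000328). Of the 7 cilium kinesins, 6 were higher and 1 (Kif3b) was lower in the mean of PTC1 and PTC2 against LD, beside 45.2% and 21.7% of all genes. With the chromosome median subtracted, Kif7 was not called and Kif3b stood at 0.07, the opposite sign. With the neighbourhood shift subtracted, Kif3a and Kif7 were not called and Kif3b stood at 0.04. The regions of Kif24, Kif3a, Kif3b and Kif3c also hold the promoter window of another gene.

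**Figure D3:**
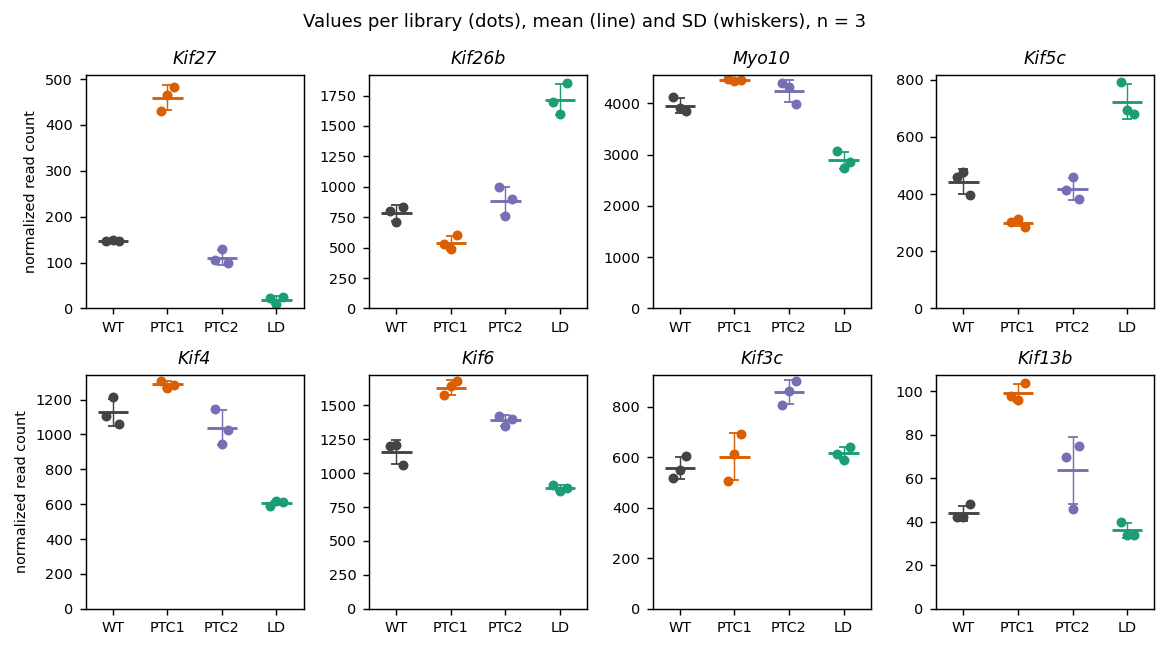
Normalized read count (linear axis from 0) of 8 members in each library, with dots for libraries, a line for the group mean and whiskers for 1 SD (n = 3). Kif27 falls from 148 in WT to 18.3 in LD, Kif26b and Kif5c are highest in LD, Myo10 is lowest in LD, and Kif3c is highest in PTC2.

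The 12 spindle and cytokinesis kinesins changed by small amounts, apart from Kif4 in LD. In cycling cells their genes are held down outside division by the DREAM complex and switched on by the MMB complex, which both act through a promoter sequence called the CHR element, often beside CCAAT boxes bound by NF-Y. All 9 spindle kinesins whose own RefSeq promoter window overlaps their region hold the CHR letters (TTTGAA, searched on both strands), against 1 of the 22 other members with such a window, Kif26b. The same letters occur in 17.9% of all 32851 windows, which span 250 bases before to 50 after the start. In all 9 spindle kinesins a match begins within 30 bases of the start site, a limit chosen after the positions were seen, against 3.14% of all windows. CCAAT, also searched on both strands, was in 7 of the 9 windows and in 37.4% of all windows. A match is a description of the letters, not a binding site.

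The stretch from 90 bases before to 40 after the start site is printed below for these 9 genes, because they share the CHR letters. Kif26b, which is not a spindle kinesin, holds these letters too. Sequences are from RefSeq, GRCm38.p6, read on the strand of the gene, with CHR and CCAAT letters on either strand in capitals (TTCAAA and ATTGG are the reverse complements).
Kif11 (chr19:37376292-37376421, plus strand): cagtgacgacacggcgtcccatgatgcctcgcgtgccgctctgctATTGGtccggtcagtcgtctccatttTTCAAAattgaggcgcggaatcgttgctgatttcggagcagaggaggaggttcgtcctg
Kif15 (chr9:122950991-122951120, plus strand): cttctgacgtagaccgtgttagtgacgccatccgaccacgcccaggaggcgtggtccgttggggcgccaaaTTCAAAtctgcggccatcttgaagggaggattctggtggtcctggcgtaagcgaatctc
Kif18b (chr11:102925085-102925214, minus strand): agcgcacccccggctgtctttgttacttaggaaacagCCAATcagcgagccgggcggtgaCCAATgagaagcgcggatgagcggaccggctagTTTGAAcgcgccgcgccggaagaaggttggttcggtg
Kif20b (chr19:34922268-34922397, plus strand): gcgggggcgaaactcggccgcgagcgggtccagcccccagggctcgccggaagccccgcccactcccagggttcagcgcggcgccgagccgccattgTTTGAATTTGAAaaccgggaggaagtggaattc
Kif22 (chr7:127042381-127042510, minus strand): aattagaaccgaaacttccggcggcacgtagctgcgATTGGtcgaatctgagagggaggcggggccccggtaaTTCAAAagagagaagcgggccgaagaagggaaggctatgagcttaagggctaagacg
Kif23 (chr9:61946760-61946889, minus strand): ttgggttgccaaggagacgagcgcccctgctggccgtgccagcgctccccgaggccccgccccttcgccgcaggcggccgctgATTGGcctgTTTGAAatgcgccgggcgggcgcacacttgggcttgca
Kif4 (chrX:100625975-100626104, plus strand): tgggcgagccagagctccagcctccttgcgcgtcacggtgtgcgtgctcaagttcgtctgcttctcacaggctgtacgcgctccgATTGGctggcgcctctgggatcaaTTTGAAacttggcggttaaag
Kifc1 (chr17:33890594-33890723, minus strand): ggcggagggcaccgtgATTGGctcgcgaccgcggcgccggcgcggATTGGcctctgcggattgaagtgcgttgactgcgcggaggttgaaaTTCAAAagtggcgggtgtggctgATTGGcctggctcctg
Kifc5b (chr17:26917001-26917130, plus strand): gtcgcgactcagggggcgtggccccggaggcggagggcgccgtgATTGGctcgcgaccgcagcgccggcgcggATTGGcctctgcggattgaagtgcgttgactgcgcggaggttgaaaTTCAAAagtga

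These promoters share the element and yet their accessibility differed from gene to gene. Kif11, which pushes spindle poles apart, was not called in any group, with means of 981 to 1123. Kif15, which works beside Kif11, was lower in PTC1 at -0.31 and higher in PTC2 at 0.18 (adjusted p = 0.000573 and 0.0357). Kif18b, a depolymeriser of astral microtubules, was higher in all 3 groups at 0.37, 0.23 and 0.19 (adjusted p = 1.51e-05, 0.00365 and 0.0185). Kif20b, a motor of late cytokinesis, was lower in PTC1 at -0.19 and PTC2 at -0.20 (adjusted p = 0.0162 and 0.0127) and stood at 0.01 in LD. Kif22, a motor that rides on chromosome arms, was higher in PTC1 at 0.26 and PTC2 at 0.22 (adjusted p = 0.0173 and 0.0467). Kif23, the motor subunit of centralspindlin at the midzone, was lower in PTC1 at -0.29 ± 0.05 (adjusted p = 1.71e-05). It was not called there with the chromosome median subtracted (-0.006) or with the shift of its neighbourhood subtracted (-0.12). Under the same subtractions, Kif15 in PTC1 was not called either (-0.02 and 0.05). Neither was Kif22 in PTC1 (0.16 and 0.15) or PTC2 (0.17 and 0.13), nor Kif18b in PTC2 and LD. Kif18b in PTC1 and Kif15 in PTC2 were called under both. Kif20b was called only with the neighbourhood shift subtracted, at -0.20 in PTC1 and -0.21 in PTC2.

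Kif4, a chromosome-bound motor that shortens the central spindle, had the largest change of the spindle group. It had 1105, 1212 and 1060 reads in WT, 1306, 1269 and 1285 in PTC1, 1145, 947 and 1025 in PTC2, and 592, 616 and 613 in LD. The LD libraries lay far below all others. The change was -0.89 ± 0.07 (adjusted p = 2.28e-11), beside a median shift of -0.52 over chromosome X and of -0.62 within 1000000 bp, whose part was not tested. Its region also holds the promoter window of Pdzd11. The minus-end motors Kifc1 and Kifc5b, which bundle spindle microtubules, are near copies: the RefSeq windows had the same base at 249 of 262 aligned positions. How reads that fit both copies were counted is not given in the sources used here, so their values are uncertain. Kifc1 was higher in PTC1 at 0.22 and Kifc5b at 0.34 (adjusted p = 0.000252 and 1.47e-06). With the chromosome median subtracted, Kifc1 stood at 0.01, not called, and Kifc5b at 0.13, called. With the neighbourhood shift subtracted, they stood at -0.02 and 0.08, and neither was called.

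Kif20a, which brings cytokinesis factors to the midzone, was lower in LD at -0.34 ± 0.07 (adjusted p = 0.000173). It lies on chromosome 18, and with the chromosome median subtracted it stood at 0.21, the opposite sign. Kif14, a partner of citron kinase, was higher in PTC2 at 0.36 ± 0.07 (adjusted p = 3.14e-05), and Kif2c, the depolymerase at kinetochores, in PTC1 at 0.30 ± 0.09 (adjusted p = 0.005). In PTC2, Kif14 was not called with the neighbourhood shift subtracted (0.07) and was called with the chromosome median subtracted (0.22).

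In the last group, kinesins that regulate microtubules or signalling, Kif26b rose most in LD. Kif26b has a motor domain that does not hydrolyse ATP and acts in Wnt signalling and cell adhesion. Its region (chr1:178527245-178529801) had 805, 713 and 833 reads in WT, 530, 488 and 604 in PTC1, 996, 764 and 896 in PTC2, and 1695, 1598 and 1854 in LD. LD lay above and PTC1 below all other libraries. LD was higher at 1.13 ± 0.09 (2.19-fold, adjusted p = 1.35e-11), PTC1 was lower at -0.54 ± 0.09 (adjusted p = 6.24e-06), and PTC2 stood at 0.17 (adjusted p = 0.102). The mean of the premature stop groups was below LD, at -1.31 ± 0.08 (adjusted p = 5.73e-15). A further Kif26b region, 1520 bp from the start site, changed the same way, by 0.71 in LD (adjusted p = 0.000102) and -0.46 in PTC1 (adjusted p = 0.00515). Its paralog Kif26a had 60, 54 and 43 reads in WT and 74, 111 and 101 in LD, a rise of 0.85 ± 0.22 (adjusted p = 0.00179).

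Kif26b and Kif5c were both highest in LD and lowest in PTC1. The whole promoter windows of both are printed below for comparison, from RefSeq GRCm38.p6, from 250 bases before to 50 after the start. Capitals mark CHR and CCAAT letters in Kif26b, and the letters of the GC box, GGGCGG, and of the TATA box, TATAAA, in Kif5c, on either strand. Different letters are thus marked in each window, and a GC box match of Kif26b at position -126 from the start is not in capitals. The GC box was in 25 of 31 member windows (80.6%) and in 35.7% of all windows, and the median GC content was 63.7% in members and 52.7% in all windows. TATAAA was in 1 of 31 member windows, that of Kif5c, and in 13.6% of all windows. The Kif5c match is on the opposite strand (TTTATA as printed) and begins at position -220 from the start, so it describes letters only.
Kif26b (chr1:178528875-178529174, plus strand): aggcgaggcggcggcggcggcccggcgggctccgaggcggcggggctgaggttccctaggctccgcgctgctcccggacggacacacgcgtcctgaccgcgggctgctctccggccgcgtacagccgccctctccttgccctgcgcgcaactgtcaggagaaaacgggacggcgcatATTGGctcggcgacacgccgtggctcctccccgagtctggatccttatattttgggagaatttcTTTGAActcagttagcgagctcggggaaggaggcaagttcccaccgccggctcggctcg
Kif5c (chr2:49619036-49619335, plus strand): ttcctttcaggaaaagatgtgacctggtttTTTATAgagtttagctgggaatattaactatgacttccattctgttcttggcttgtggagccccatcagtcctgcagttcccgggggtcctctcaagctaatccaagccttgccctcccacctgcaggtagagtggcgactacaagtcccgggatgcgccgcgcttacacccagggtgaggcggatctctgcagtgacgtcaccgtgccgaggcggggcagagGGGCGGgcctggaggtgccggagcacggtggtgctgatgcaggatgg

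Kif21a, which limits microtubule growth at the cortex, had 1101, 1261 and 1065 reads in WT, 1503, 1645 and 1895 in PTC1 and 970, 854 and 866 in LD. PTC1 lay above and LD below WT. It was higher in PTC1 at 0.55 ± 0.08 (adjusted p = 3.91e-07) and lower in LD at -0.35 ± 0.08 (adjusted p = 0.000474). With the neighbourhood shift subtracted, Kif21a stood at 0.05 in PTC1 (limma adjusted p = 0.645) and -0.22 in LD (0.0421). With the chromosome median subtracted it stood at 0.12 (0.174) and -0.18 (0.064). Kif2a, a depolymerase of spindle poles and neurites, was higher in PTC2 at 0.40 ± 0.07 (adjusted p = 1e-05). This rise was not called with the neighbourhood shift subtracted (0.15) and was called with the chromosome median subtracted (0.30). A region of Kif2a 2512 bp from the start site went the other way in PTC2, from 691 ± 6.24 in WT to 399 ± 19.2 (SD, n = 3), a change of -0.79 ± 0.08 (adjusted p = 1.18e-09 by limma). Kif21b was higher in PTC1 at 0.22 and PTC2 at 0.33 (adjusted p = 0.0237 and 0.00111), and its second region rose by 1.42 in PTC2 (adjusted p = 1.35e-12). Kifc2 was higher in PTC1 at 0.33 and PTC2 at 0.40 and lower in LD at -0.22 (adjusted p = 0.00149, 0.000245 and 0.0379). Kif19b, with means of 22.7 in WT and 41.7 in PTC1, was higher in PTC1 at 0.88 (adjusted p = 0.0203), and Kifc3 was not called.

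Set against LD, the mean of PTC1 and PTC2 was higher in 20 members (38.5%) and lower in 8 (15.4%), beside 45.2% and 21.7% of all genes. With every library set to the same median it was higher in 33 members and lower in 4. The shares of all genes were not computed under that scaling. Those higher in both premature stop groups against WT and also over LD included Kif13b, Kif21b, Kif6, Kifc2 and Myo9b, and the reverse held for Kif20b. The share of all genes with either pattern was not computed. With the neighbourhood shift subtracted, Kif6 stood at -0.11 in PTC1 and -0.26 in PTC2, and Myo9b at -0.08 and -0.06. Kifc2 stood at -0.05 in PTC1 and Kif21b at -0.01 in PTC2, all of opposite sign. Kif13b and Kif20b kept their direction, though Kif13b in PTC2 (0.42) and Kif20b against LD (-0.11) were no longer called. Between the premature stop groups, 15 members (28.9%) were higher in PTC1 and 15 (28.9%) in PTC2, beside 21.1% and 33.2% of all genes. With the same median in every library the counts were 11 and 21, again without a share of all genes. Members whose region lay beyond 1000 bp had 6 of 13 higher and 0 lower in PTC1 against PTC2, and those within 1000 bp had 9 of 39 higher and 15 lower. Shares of all genes split by this distance were not computed, so whether other genes divide in the same way is not known.

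On some chromosomes the members called lay on 1 side of WT, as most genes there did. Of the 7 members on chromosome 9, 6 were lower in PTC1 (Kif15, Kif23, Myo1e, Myo5a, Myo6 and Myo9a) and 0 were higher, beside 63.4% of all genes of that chromosome lower. All 3 members on chromosome 15 (Kif21a, Kifc2 and Myo10) were higher in PTC1 and lower in LD, beside 79.3% of its genes higher in PTC1 and 54.1% lower in LD. All 4 on chromosome 17 were higher in PTC1, beside 55.7% of its genes. Chromosome 18 had the lowest median in LD, -0.55, and both its members, Kif5b and Kif20a, were lower there, beside 81.0% of its genes. On others the members split. In PTC1 the counts higher and lower were 2 and 1 on chromosome 1, beside 36.1% and 28.9% of its genes. They were 1 and 2 on chromosome 2, beside 10.3% and 48.4%, and 1 and 1 on chromosome 13, beside 13.9% and 55.2%. In PTC2 they were 6 and 2 of the 9 on chromosome 11, beside 56.4% and 10.8% of its genes.

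Within 1000000 bp of each member, the median shift of the other regions (at least 10000 bp away) ranged from -0.55 to 0.82 in PTC1, -0.92 to 0.53 in PTC2 and -0.62 to 0.48 in LD. Across the 52 members, Spearman's rank correlation between the change of a member and that shift was 0.628 in PTC1, 0.630 in PTC2 and 0.563 in LD, and Pearson's r was 0.443, 0.280 and 0.341. These are descriptions across genes, which share libraries and neighbourhoods and are not replicates. Subtracting the shift took the median size of the change from 0.28 to 0.16 in PTC1, from 0.20 to 0.15 in PTC2, and left 0.16 in LD. Of the calls against WT, the sign turned in 10 of 34 in PTC1, 7 of 30 in PTC2 and 3 of 21 in LD, of which 2, 2 and 0 were called in the opposite direction. Those in PTC1 were Kif15, Kif1b, Kif5b, Kif6, Kifc1, Kifc2, Myo10, Myo1e, Myo5a and Myo9b, those in PTC2 Kif16b, Kif21b, Kif5b, Kif6, Kifc5b, Myo6 and Myo9b, and those in LD Kif20a, Kifc5b and Myo18a. Subtracting the chromosome median instead turned 6, 1 and 1 signs, among them Myo6 (0.11) and Myo9a (0.03) in PTC1. Kif27 and Kif26b in LD and Kif27 in PTC1 stood far from their surroundings. Whether copy number, chromatin state or another property moved these neighbourhoods was not tested.

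**Figure D4:**
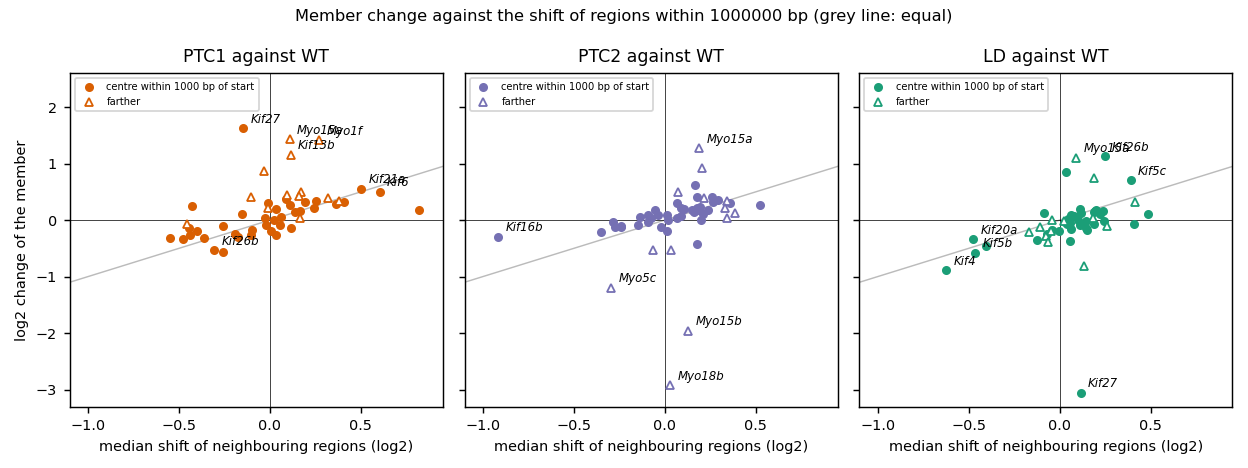
Log2 change of a member against WT (y axis) against the median log2 change of other regions within 1000000 bp (x axis) for 51 members, with circles for region centres within 1000 bp of the start site and triangles for the rest. The grey line marks equal values, and Kif27 in LD (-3.06 against 0.12) and Kif27 in PTC1 (1.63 against -0.15) lie far from it, while Kif5b and Kif20a in LD lie near it.

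The 19 further regions listed for members, away from the start site region of the same gene, were counted apart. In PTC1, 8 were higher and 3 lower, beside 30.6% and 31.2% of all regions. In PTC2 the counts were 8 and 6, beside 28.4% and 29.8%. LD had 6 and 5, beside 22.6% and 24.7%. Of these calls, 1 in PTC1, 2 in PTC2 and 0 in LD went opposite to a called start site.

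The partners of these motors were read the same way from gene lists, and their counts stand beside the shares of all genes: for PTC1 33.3% were higher and 28.5% lower, for PTC2 37.4% and 16.3%, and for LD 16.9% and 29.5%. Each list is given with its gene of lowest adjusted p in each mutant. Of 21 dynein and dynactin genes, the motor system that runs toward microtubule minus ends, PTC1 had 8 higher and 8 lower, PTC2 10 higher and 0 lower, and LD 0 higher and 6 lower. The cargo adaptor Hook3 was lower in PTC1 at -0.79 (adjusted p = 1.31e-14), and the dynein light intermediate chain Dync1li2 higher in PTC2 at 0.57 (adjusted p = 6.51e-08). Bicd1, an adaptor that links dynein to cargo, had WT, PTC1, PTC2 and LD means of 220, 504, 429 and 27.0, and its LD change was -3.03 (adjusted p = 5.5e-16), beside -3.06 for Kif27. Of 21 kinesin light chains and adaptors, PTC1 had 7 higher and 4 lower, PTC2 7 and 1, and LD 2 and 4, with the mitochondrial adaptor Trak1 at 0.73 in PTC2 (adjusted p = 3.65e-09), the kinesin light chain Klc1 at -0.57 in PTC1 (adjusted p = 1.12e-07) and the lysosomal GTPase Arl8b at -0.42 in LD (adjusted p = 2.33e-06). Of 19 myosin regulators and adaptors, PTC1 had 6 higher and 10 lower, PTC2 5 and 5, and LD 2 and 4. The myosin VI adaptor Optn was lower in PTC1 at -1.08 and PTC2 at -0.82 (adjusted p = 7.8e-13 and 2.79e-10), and Rock1, a kinase that activates myosin II, was lower in LD at -0.63 (adjusted p = 6.39e-10). The chromosome median was 0.20 in PTC1 for Hook3, and in PTC2 0.25 for Dync1li2 and 0.05 for Trak1. In LD it was -0.35 for Bicd1 and Arl8b and -0.55 for Rock1. It was -0.29 in PTC1 for Klc1, and -0.18 in PTC1 and -0.175 in PTC2 for Optn. The part of these shifts in the partner changes was not tested.

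Among 11 myosin II heavy and light chain genes, which build contractile filaments, PTC1 had 3 higher and 2 lower, PTC2 6 and 0, and LD 4 and 2, beside the same all-gene shares. The heavy chain Myh9 was higher in PTC1 at 0.43 (adjusted p = 1.24e-09), and the light chain Myl9 in PTC2 at 0.83 and LD at 0.66 (adjusted p = 1.52e-10 and 2.97e-08). The chromosome median was 0.44 in PTC1 for Myh9, and -0.175 in PTC2 and 0.13 in LD for Myl9. Of 21 tubulin and plus end genes, PTC1 had 6 higher and 12 lower, PTC2 6 and 5, and LD 3 and 6. The beta tubulin Tubb6 was lower in all 3, at -0.55, -0.45 and -0.69 (adjusted p = 5.78e-10, 3.39e-08 and 1.07e-11). Tubb6 lies on chromosome 18, whose medians were -0.45, -0.28 and -0.55 in PTC1, PTC2 and LD. Of 19 spindle and midbody partners, PTC1 had 6 higher and 6 lower, PTC2 7 and 1, and LD 4 and 4. The central spindle protein Racgap1 was higher in PTC1 at 0.49, the topoisomerase Top2a higher in PTC2 at 0.48, and the kinetochore protein Ndc80 lower in LD at -0.23 (adjusted p = 2.64e-06, 7.18e-07 and 0.000194). The chromosome medians of Racgap1, Top2a and Ndc80 in those groups were 0.44, 0.17 and 0.09. The part of the chromosome shifts in these changes was not tested. The list medians in PTC1 ran from -0.23 for tubulin and plus end genes to 0.08 for kinesin adaptors, beside 0.03 for all genes.

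**Figure D5:**
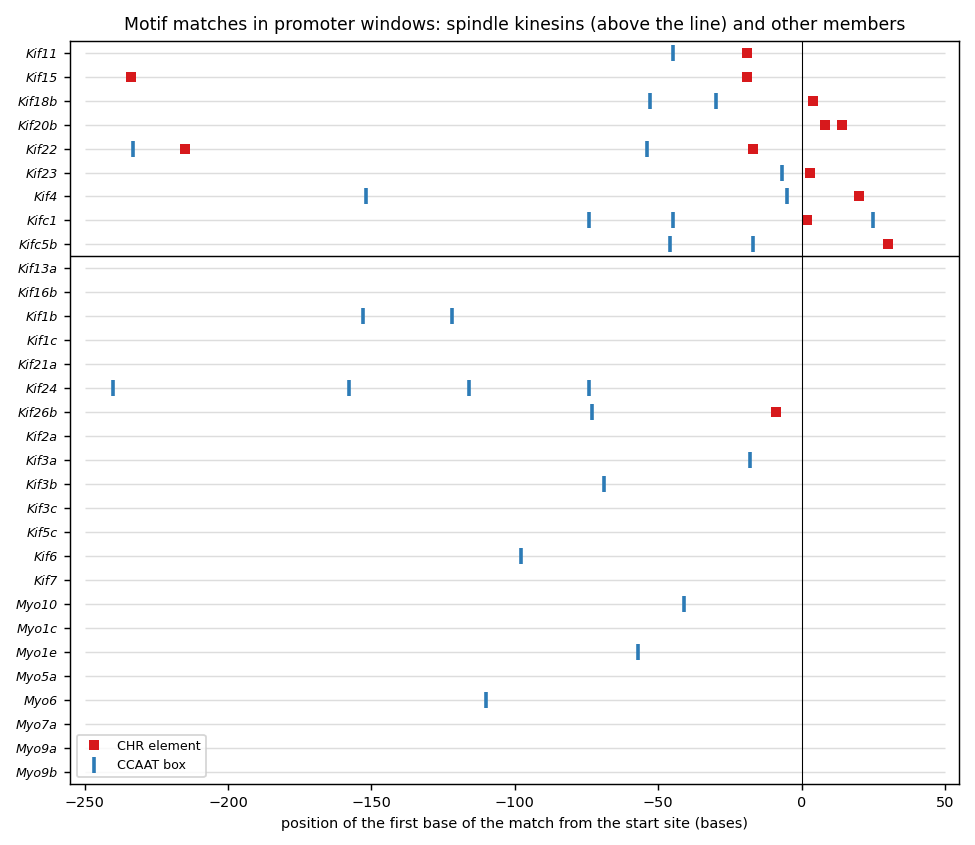
Positions of CHR (squares) and CCAAT (bars) letters, in bases from the start site, in the RefSeq promoter windows of 31 members, with 9 spindle kinesins above the line. Each spindle kinesin has a CHR match within 30 bases of the start site, and among the other 22 members Kif26b has one.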

How the data were processed

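Per the submitters' processing notes, build mm10, DESeq2 1.30.1, Picard 2.25.5, STAR 2.7.10a and Trimmomatic 0.39 are named, in roles that are not stated. The sources used here do not give the peak caller, any Tn5 shift, or the base from which region starts are counted. The deposited table gives each region a score per sample: by its values, reads per region divided by a sample-wide factor and rounded to whole numbers by the authors, called the normalized read count here. The deposited fraction of each region inside the gene body was given by the authors, per the file headers, and was not tested. Depth was estimated from the gaps between whole numbers. All 12 sample columns were matched to titles, and 0 other sample columns were left unused.

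A count test was planned for raw counts, and because the values are scaled the planned fallback was used: log2(value + 1) over 81985 regions with a mean of 5 or more (10 left out), limma 3.58.1 (R 4.3.3) with group means and trended empirical Bayes, and Benjamini-Hochberg adjustment over all regions, called under 0.05. P-values measure the spread between these samples. Changes are understated at low values. Intervals cover 95%.

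Members read at 1 start site region each, role groups and partner lists were chosen with earlier results of these data known, so no list is independent support. Values per library were given by a rule: in each comparison the 8 largest rises and 8 largest falls among called members whose groups did not overlap and whose higher mean was at least 20. Myo6, Myo7a, Myo9b and others outside it are given in their role group, as is the gene of lowest adjusted p in each partner list and comparison with WT. Values per library of Myo18b and Myo15b, and of groups outside a called comparison, were added after the values were seen.

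RefSeq GRCm38.p6 promoter windows matched 40 members by symbol, and 31 of these overlapped the member's region. The values of 1 member, counted in all totals, are not reported here. The main fit did not pair samples by replicate number, and 0 of 18 same-numbered pairs had deviations correlated over 0.1. Still, 11 of 12 libraries correlated best with their own number. Alternatives were other scalings, pseudocounts and filters, the replicate block, leaving out each library, centring by chromosome or neighbourhood, the most open region per gene, and regions within 1000 bp or over the gene's own promoter window.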

Additional observations from a re-analysis of the deposited data

How the results depend on the processing

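Of 72 results for 35 named genes, 1655 values under alternatives were computed: 1582 kept direction and call, 53 kept direction and lost the call, and 20 turned sign. Pseudocounts of 0.5 and 10, no filter and fitting the compared groups alone changed no call. A minimum mean of 20 leaves out Myo15b, and the test over all 4 groups has no fit on the compared groups alone. The samples share only replicate numbers: 18 same-numbered pairs had deviations correlated at -0.0044 to 0.0447, 0 of them over 0.1, though 11 of 12 libraries correlated best with their own number. With the replicate block, all 72 calls held, and members higher and lower were 22 and 12 in PTC1, 23 and 8 in PTC2, and 10 and 12 in LD.

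Shares of all genes were not computed under the alternatives. Counts of members moved by more than 1.5 times as follows. With neighbourhood centring, PTC1 had 14 higher and 7 lower, PTC2 10 higher, LD 5 higher, and premature stop against LD 4 lower. With chromosome centring, PTC1 had 4 lower, PTC2 5 lower, and premature stop against LD 3 lower. With the same median in every library, PTC2 had 5 lower, LD 5 higher, and premature stop against LD 33 higher and 4 lower. With loess, LD had 19 higher and 7 lower, against 9 and 12. Within 1000 bp (39 members), PTC2 had 4 lower and PTC1 9 over PTC2. With the gene's own promoter window (31 members, chosen after the data were seen), PTC1 had 11 higher, PTC2 13 higher and 3 lower, LD 4 higher, premature stop over LD 13, PTC1 over PTC2 7, and 29 differed among the groups; fewer members enter both. Other causes were not tested.

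Leaving out each library in turn, members higher and lower ranged over 19 to 23 and 11 to 14 in PTC1, 18 to 22 and 5 to 10 in PTC2 (5 without PTC2 replicate 2 or 3), 6 to 10 and 8 to 12 in LD, 18 to 23 and 8 to 9 for premature stop against LD, and 12 to 16 and 15 to 17 for PTC1 against PTC2, and 46 to 49 differed among the groups.

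Signs turned under chromosome centring for Kif20a in LD (0.21), Kif3b in premature stop against LD (0.068), Kif5b in PTC1 (0.15) and PTC2 (0.11) and Myo5a in PTC1 (0.018). They turned under neighbourhood centring for Kif20a (0.14) and Kifc5b (-0.037) in LD, Kif3b (0.044) and Myo10 (-0.18) in premature stop against LD, Kif2a (0.011) and Myo1e (0.034) in PTC1 against PTC2, Kif15 (0.051), Kif5b (0.23), Kif6 (-0.11), Myo1e (0.15) and Myo5a (0.17) in PTC1, and Kif16b (0.63), Kif21b (-0.013) and Kif5b (0.15) in PTC2. Of the 72 results, 15 kept direction and lost the call under chromosome centring, and 13 under neighbourhood centring. With the most open region of each gene, Myo5c in PTC1 against PTC2 turned to -0.16. Without 1 library, calls were lost for Kif18b in LD, Kif19b in PTC1, Kif1b and Kif5b in PTC2, and Kif13b in PTC1 against PTC2.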

Other observations

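Several motor genes have a RefSeq promoter window inside a region that the deposited table lists under another gene or under none, and so fell outside the 52. They were looked up after the other values were seen. Of 14 motor symbols with a window and no listed region, 6 lay inside a region, and the sixth of these, Kif16bos, lay in a region of Kif16b.

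The window of Kif17, a motor of cilia and dendrites, lay in a region with no listed gene (chr4:138262052-138262501). Its WT, PTC1, PTC2 and LD means were 27.7 ± 0.6, 107 ± 19.6, 16.7 ± 3.8 and 33.7 ± 4.7 (SD, n = 3). It was higher in PTC1 at 1.90 ± 0.25 (SE; limma adjusted p = 1.29e-07) and lower in PTC2 at -0.72 ± 0.25 (adjusted p = 0.0146). The window of the class I myosin Myo1h lay in another region with no listed gene, which fell in all 3 mutants, from a WT mean of 1710 to 1227, 1065 and 1496 in PTC1, PTC2 and LD, by log2 values of -0.48, -0.68 and -0.19 (adjusted p = 5.67e-08, 5.84e-11 and 0.00929). The windows of Kif18a, a spindle motor that damps chromosome movement, of Kif9, a motor of sperm and cilia, and of Myo19, the motor on mitochondria, lay in regions listed under Mettl15, Klhl18 and Pigw. Kif18a was higher in PTC2 at 0.17 (adjusted p = 0.0216). Kif9 was lower in PTC1 at -0.20 and higher in PTC2 at 0.14 (adjusted p = 0.00158 and 0.0254). Myo19 was higher in PTC1 at 0.18 (adjusted p = 0.0287). In these regions the value cannot be given to 1 gene.

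A further Kifc1 region 2096 bp from the start site had WT, PTC1, PTC2 and LD means of 60.0, 166, 71.3 and 28.3, higher in PTC1 at 1.45 and lower in LD at -1.09 (adjusted p = 5.62e-07 and 7.42e-05).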
